A study of Mus musculus with 4 samples.

Results

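The 40 transcripts described here encode the aminoacyl-tRNA synthetases and the small proteins that hold some of them together. They were chosen by gene symbol from a fixed list of 40 names, and all 40 were among the 24497 gene rows of the expression table. There were 21 cytosolic enzymes, 16 mitochondrial enzymes (names ending in 2, other than Tarsl2 and Aimp2) and 3 scaffold proteins (Aimp1, Aimp2 and Eef1e1). RNA was sequenced from cultured mouse acute myeloid leukaemia cells that carry NRAS and AE9a, a short form of the AML1-ETO fusion protein. In the 2 WT libraries the leukaemia had been established from wild-type marrow stem cells, and in the 2 Tet2 KO libraries from Tet2-/- marrow lacking exon 3 of Tet2, the gene of an enzyme that oxidises methylated cytosine. The medium was the same for all 4 libraries and held SCF (50 ng/ml), the cytokines IL-3 and IL-6 (10 ng/ml), and the selection drugs G418 (1 mg/ml) and puromycin (2 µg/ml), with no further treatment. The labels name no number of mice, clones or separate cultures, so the spread between the libraries of a group may be technical, and p-values measure only that spread.

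An aminoacyl-tRNA synthetase joins an amino acid to its matching tRNA, the step that sets which amino acid the ribosome inserts at a codon. Nuclear genes encode separate enzymes for the cytosol and for mitochondria in most cases, whereas Gars and Kars each give both forms from the same gene. In the cytosol Eprs, Iars, Lars, Mars, Qars, Rars, Kars and Dars assemble with Aimp1, Aimp2 and Eef1e1 into the multi-synthetase complex. When amino acids run short, uncharged tRNA activates the kinase GCN2, eIF2 is phosphorylated and the transcription factor ATF4 is made. Genes of cytosolic synthetases and of amino acid uptake and synthesis are among its known targets, which ATF4 binds at a C/EBP-ATF response element.

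Values are TPM, which are scaled for transcript length and so can be compared between genes. TPM hold no read totals, and sequencing depth is unknown. The ERCC spike-in rows took 4.38 to 5.48% of the total, a larger share in Tet2 KO. A filter of 1 TPM in 2 or more libraries left 11452 genes, which were tested with limma on log2(TPM + 1), and all 40 genes passed that filter. The median log2 fold change of all tested genes was 0.23 on the deposited scale, so a general shift lies under every value below. Changes are therefore also given after median-ratio scaling, which brought that median to 0.0023. Tet2 itself was at 16.8 TPM in WT and 17.0 TPM in Tet2 KO, a gene-level value that does not separate exon 3. The leukocyte markers Ptprc, Spn and Laptm5 ranged from 58.63 to 1160.60 TPM, and T cell, B cell, erythroid and stromal markers did not exceed 1.03 TPM. All 3 leukocyte markers rose in Tet2 KO on the deposited scale and only Spn of them after median-ratio scaling, and of the 9 granulocyte and monocyte markers Mpo rose and 8 fell. Their summed level went from 1853 and 1827 TPM in WT to 1082 and 1106 TPM in Tet2 KO for the granulocyte list, and from 20141 and 20153 to 8161 and 8263 TPM for the monocyte list. The part of this shift in the results below was not tested. In bulk RNA, fewer cells of a type and less RNA per cell cannot be told apart.

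The promoters with a match to the C/EBP-ATF element, which are those of 5 cytosolic enzymes, are shown because known ATF4 targets carry it. Its part in the changes was not tested. The letters TGATGNAA were searched on both strands from 250 bases before to 50 bases after the annotated start, in RefSeq promoters on GRCm38.p6. Capitals mark the match, every sequence reads 5′ to 3′ on the strand of the gene with its neighbouring bases in lower case, and TTGCATCA or TTTCATCA is the element read on the opposite strand.
Aars, 112 bases before the start, chr8:111033704-111033763, plus strand: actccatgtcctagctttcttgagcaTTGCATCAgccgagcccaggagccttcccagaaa
Gars, 30 bases before the start, chr6:55037945-55038000, plus strand: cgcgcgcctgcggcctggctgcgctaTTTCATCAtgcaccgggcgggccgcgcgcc
Tars, 15 bases before the start, chr15:11399659-11399699, minus strand: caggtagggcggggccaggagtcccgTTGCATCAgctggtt
Iars, from base 8 of the transcript, chr13:49682126-49682155, plus strand: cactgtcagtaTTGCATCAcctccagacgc
Yars, from base 4 of the transcript, chr4:129189895-129189924, plus strand: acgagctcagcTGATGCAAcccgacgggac
A gene with several annotated starts counted if any of them held the letters. A promoter was found for 31 of the 40 genes and not for Cars, Hars, Hars2, Lars, Nars, Pars2, Rars, Vars and Wars. The element was present in 5 of 14 cytosolic promoters (35.7%), 0 of 14 mitochondrial promoters and 0 of 3 scaffold promoters. Of the tested genes with a promoter 2.82% held it, and of all genes with a promoter 4.51%. Aars held a second match, from base 10 of the transcript. All 5 genes were called higher in Tet2 KO on the deposited scale, as 54.4% of all tested genes were, and Aars, Gars, Iars and Yars also after median-ratio scaling. Tars rose 1.17-fold, less than the 1.19-fold of the median gene, and was not called after median-ratio scaling (log2 fold change -0.02). Sars and Eprs, which rose more than any of these 5, held no match in this window. The E-box CACGTG was in 4 cytosolic, 1 mitochondrial and 0 scaffold promoters (12% of tested genes), and the consensus motif of NRF1 in 3, 2 and 1 (12.1% of tested genes). No matches to different motifs overlapped, and in Tars an E-box and an NRF1 motif adjoined. A match is a run of letters and does not show binding.

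Cytosolic and mitochondrial enzymes differed first in level. Cytosolic enzymes other than Tarsl2 averaged between 39.2 TPM (Cars) and 189.01 TPM (Nars, the asparagine enzyme) in WT, and the median of all 21 was 87.1 TPM. The median of the 16 mitochondrial enzymes was 10.7 TPM, from 1.55 TPM for Ears2, which charges glutamate, to 401.2 TPM for Lars2, which charges leucine. Lars2 stood apart from the other 15, none of which exceeded 54.7 TPM (Iars2) in WT. Tarsl2, a paralogue of the threonine enzyme Tars, was at 5.86 and 7.10 TPM in WT and 6.44 and 6.24 TPM in Tet2 KO, and its groups overlapped. Within a group, libraries lay close together: the median absolute log2 difference between replicates was 0.0365 for cytosolic and 0.0761 for mitochondrial enzymes.

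**Figure D1:**
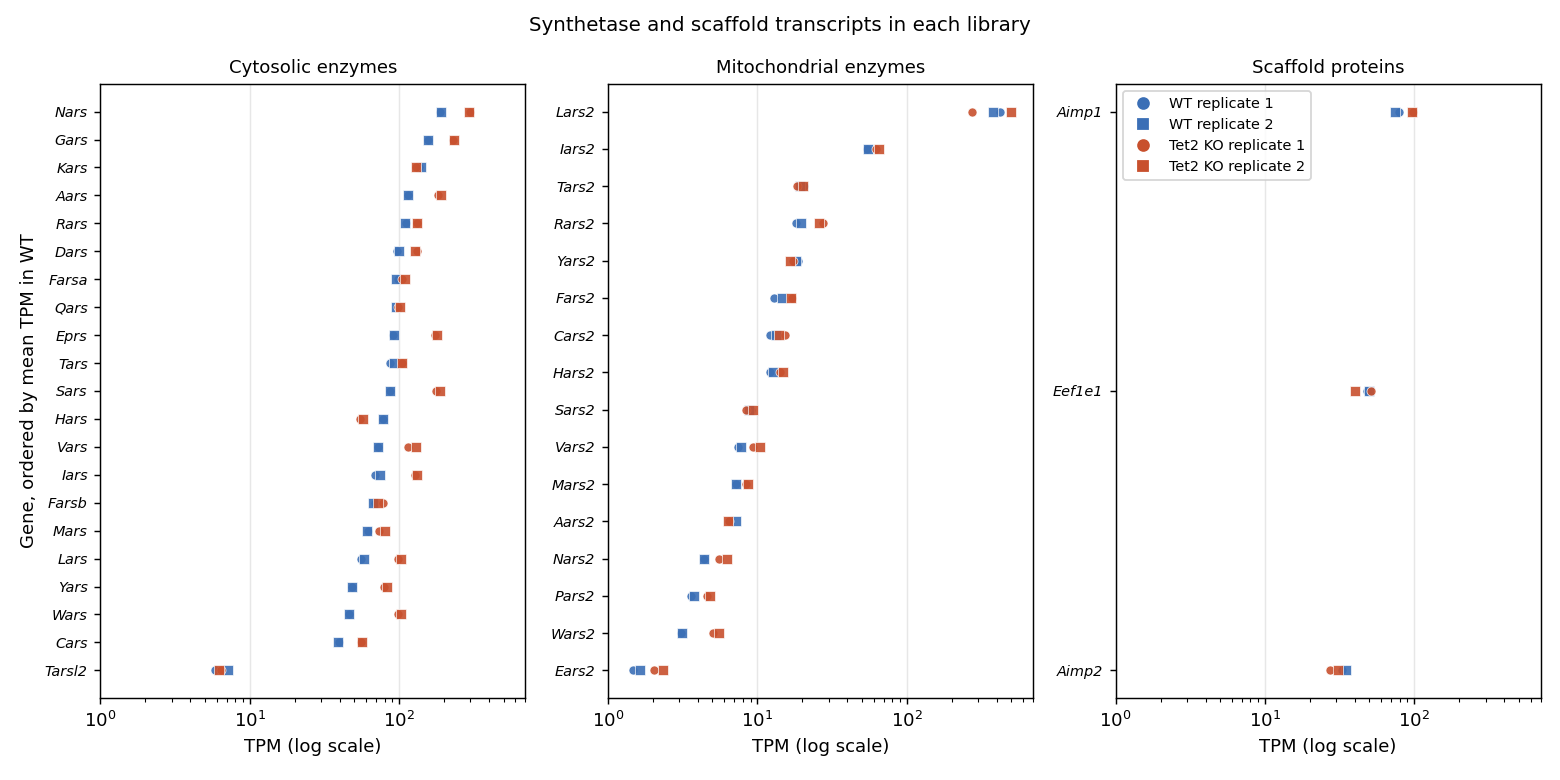
TPM of each gene (log axis) in the 2 WT (blue) and 2 Tet2 KO libraries (red), circles for replicate 1 and squares for replicate 2. Most cytosolic enzymes lie near 100 TPM with red points to the right of blue, mitochondrial enzymes lie lower, and Lars2 stands above the rest with its Tet2 KO libraries far apart.

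Most cytosolic synthetase transcripts were more abundant in Tet2 KO cells. Of the 21 cytosolic enzymes 17 rose, 1 fell and 3 did not pass the test, with a median log2 fold change of 0.50 against 0.23 over all tested genes. On the deposited scale 54.4% of all tested genes were called higher and 19.5% lower, which is 73.9% in both directions, and the cytosolic share called higher was 81%. After median-ratio scaling 12 rose, 3 fell and 6 did not pass, where 33.3% of all genes were called higher and 34.4% lower (67.7% together). Scaled to the spike-ins the numbers were 11 higher and 6 lower, against 29.6% and 37.7% of all genes (67.4% together). The genes that rose on the deposited and the median-ratio scale were Wars, Sars, Eprs, Iars, Lars, Vars, Yars, Aars, Nars, Gars, Cars and Dars, and Dars was not called with spike-in scaling (limma adjusted p = 0.0698, range over alternatives 3.74e-08 to 0.0698). In 18 of the 21 genes both Tet2 KO libraries were above both WT libraries, as in 62.4% of all tested genes, and in Hars and Kars both were below, as in 24.4% of all.

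The largest rise was that of Wars, the tryptophan enzyme (chromosome 12, 108860030 to 108894174, mm10). Wars was at 46.47 and 46.49 TPM in WT against 97.53 and 103.15 TPM in Tet2 KO. The mean rose 2.16-fold, with a log2 fold change of 1.09 (SE 0.0527, limma adjusted p = 2.12e-11). Sars, the serine enzyme (chromosome 3, 108424865 to 108445209), was at 87.48 and 86.73 TPM in WT and 177.53 and 186.77 TPM in Tet2 KO, a 2.09-fold rise. Wars and Sars were the members above 2-fold, and in both the gap between the groups was many times the difference between replicates.

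Eprs encodes the bifunctional enzyme that charges glutamate and proline (chromosome 1, 185363044 to 185428360). It went from 91.18 and 92.31 TPM in WT to 173.51 and 180.18 TPM in Tet2 KO (log2 fold change 0.94, SE 0.0457, limma adjusted p = 2.38e-11). The enzymes of the 3 branched-chain amino acids rose together with it. Iars, for isoleucine, was at 69.24 and 73.96 TPM in WT against 126.94 and 131.73 TPM in Tet2 KO. Lars, for leucine, was at 55.33 and 57.97 TPM against 98.43 and 102.72 TPM. Vars, for valine, was at 72.07 and 72.72 TPM against 114.93 and 128.79 TPM. Their means rose 1.81-fold, 1.78-fold and 1.68-fold, and no WT library reached a Tet2 KO library. Iars has a close copy in the annotation: 14.7% of the 31-base words of its transcripts also occur in other genes, most of them in Gm4849, so part of its value is uncertain.

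Yars, the tyrosine enzyme, was at 48.57 and 48.22 TPM in WT against 78.79 and 83.15 TPM in Tet2 KO. Aars, the alanine enzyme (chromosome 8, 111033144 to 111057664), was at 115.20 and 114.49 TPM against 182.33 and 190.31 TPM, a 1.62-fold rise (log2 fold change 0.69, SE 0.0448, limma adjusted p = 8.14e-10). Exons of Aars overlap those of Exosc6, an exosome subunit gene, by 1326 bases on the same strand. Exosc6 moved the other way, from 24.3 to 16.5 TPM, and the 13.9% of 31-base words that Aars shares with other genes make its level less certain. The remaining enzymes that rose on both scales were Nars for asparagine (1.57-fold), Gars for glycine (1.48-fold), Cars for cysteine (1.42-fold) and Dars for aspartate (1.33-fold). Calls of 12 of the 18 cytosolic enzymes that passed the test held in their direction under all 15 alternatives run, and these were Hars and 11 of the 12 genes above, without Dars.

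Another 5 cytosolic enzymes rose on the deposited scale by 1.11-fold to 1.24-fold, where the median gene was at 1.19-fold. They were Mars (methionine), Rars (arginine), Tars (threonine) and Farsa and Farsb, the subunits of the phenylalanine enzyme. After median-ratio scaling their log2 fold changes lay between -0.10 and 0.06 and none of them passed, and scaled to the spike-ins Farsa and Farsb were called lower. On the deposited scale the Farsa call was lost without WT replicate 2 or Tet2 KO replicate 2 (limma adjusted p = 0.163 and 0.0548, with a range of 0.00425 to 0.903 over alternatives), and the Farsb call without WT replicate 1, WT replicate 2 or Tet2 KO replicate 1 (limma adjusted p = 0.085, 0.147 and 0.106, with a range of 0.00333 to 0.803 over alternatives). Both calls were also lost without the intensity trend (limma adjusted p = 0.0662 for Farsa and 0.0745 for Farsb). The Farsb call was lost with no filter on low values as well (limma adjusted p = 0.0539). Mars was at 62.30 and 60.95 TPM in WT and 73.11 and 79.93 TPM in Tet2 KO. Mars overlaps the stress gene Ddit3 on the opposite strand by 68 bases. Ddit3 rose 3.64-fold. The library kit keeps the strand, but whether the counting used it is not given in the sources used here, so reads of overlapping opposite genes may not be separated. Exons of Aimp1, Cars, Cars2, Ears2, Fars2, Farsb, Nars2, Vars2 and Yars also overlap a gene on the opposite strand, by 30 to 501 bases, and those of Tarsl2 overlap Tm2d3 on the same strand by 120 bases.

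Hars was the cytosolic enzyme that fell. It charges histidine and was at 78.43 and 78.34 TPM in WT against 54.60 and 57.02 TPM in Tet2 KO. Hars had a log2 fold change of -0.48 (SE 0.0523, limma adjusted p = 4.1e-07), and -0.73 after median-ratio scaling (limma adjusted p = 1.39e-06, range over alternatives 1.06e-18 to 5.56e-04). Its mitochondrial partner Hars2 lies head to head with it on the opposite strand, and their exons overlap by 195 bases. Hars2 went the other way, from 12.23 and 12.77 TPM to 14.13 and 14.86 TPM, a small rise that passed on the deposited scale (limma adjusted p = 0.0256) and not after median-ratio scaling (limma adjusted p = 0.696, range over alternatives 0.0176 to 0.696). The Hars2 call was also lost without WT replicate 1, WT replicate 2 or Tet2 KO replicate 2 (limma adjusted p = 0.17, 0.065 and 0.0883).

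Kars, Qars and Tarsl2 did not pass the test on the deposited scale. Kars, for lysine, was at 136.25 and 139.26 TPM in WT against 129.31 and 129.72 TPM in Tet2 KO (limma adjusted p = 0.0841). Qars, for glutamine, was at 96.65 and 94.69 TPM against 98.56 and 101.29 TPM (limma adjusted p = 0.249). Both fell once the shift of all genes was scaled out, with median-ratio log2 fold changes of -0.33 and -0.18 (limma adjusted p = 7.67e-05 and 0.00409, ranges over alternatives 7.44e-09 to 0.384 and 4.8e-04 to 0.599). The transcripts of the cytosolic enzymes thus did not move by a common factor. Hars, Kars, Tarsl2 and Qars sat at the low end, and Wars, Sars and Eprs at the high end.

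**Figure D2:**
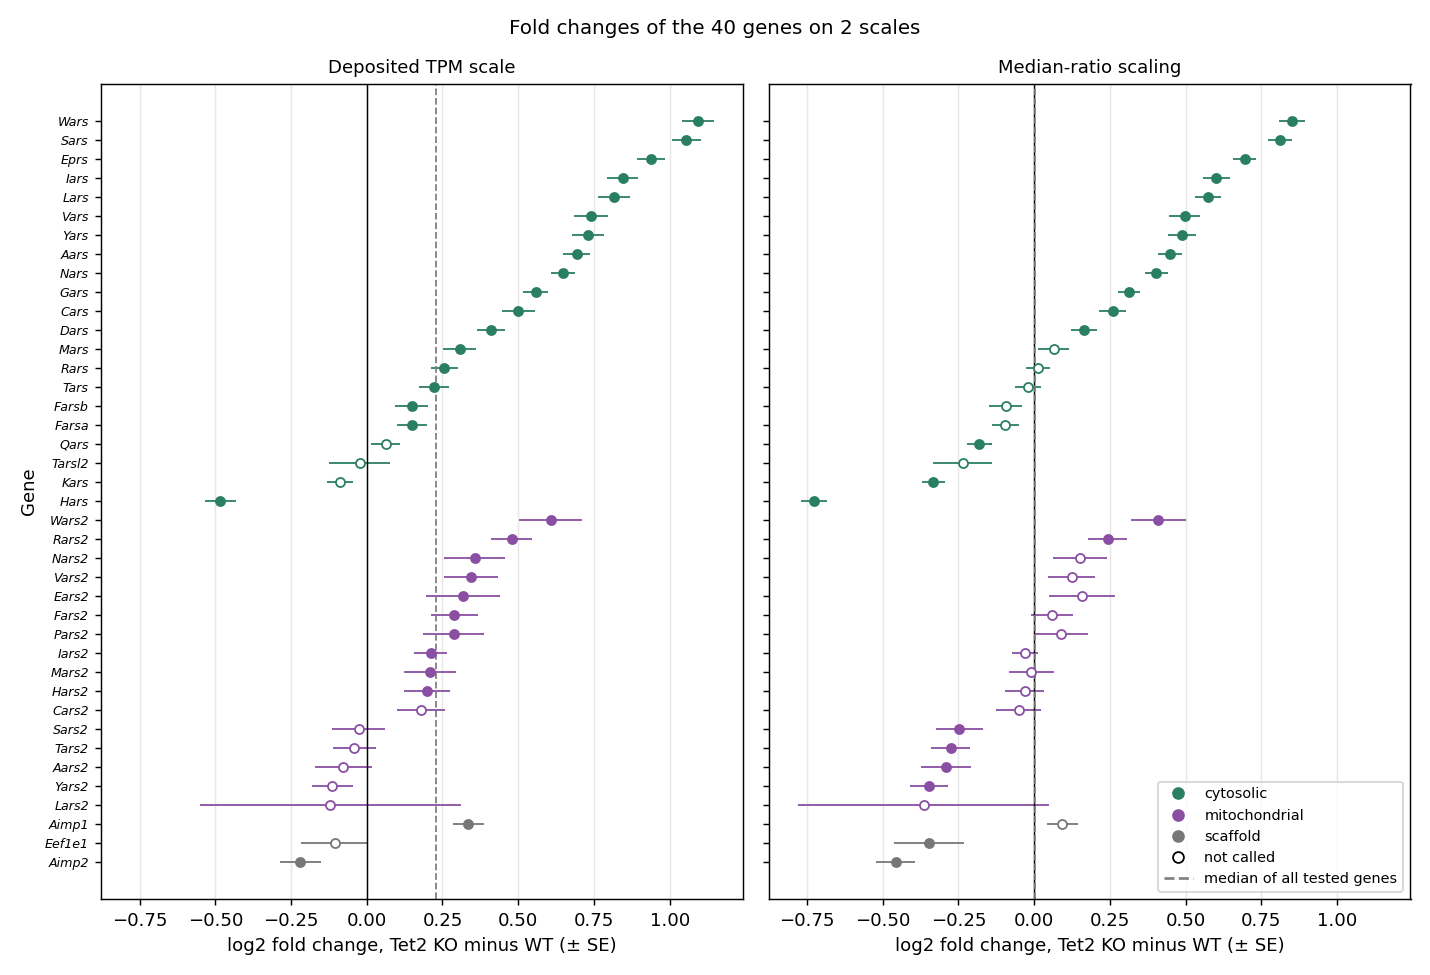
Log2 fold change of each gene in Tet2 KO against WT (points, bars ± SE of the limma fit) on the deposited scale (left) and after median-ratio scaling (right), with open points for genes that did not pass the test and a dashed line at the median of all tested genes. On both scales Wars, Sars and Eprs lead the cytosolic enzymes and Hars stands below zero, and mitochondrial enzymes gather around the dashed line.

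The cytosolic enzymes differ in fold and in assembly. Class I enzymes have a Rossmann fold, class II enzymes an antiparallel sheet, and Eprs joins a domain of each. The 9 class I enzymes had a median log2 fold change of 0.73, with 8 higher and 0 lower, and the 11 class II enzymes a median of 0.22, with 8 higher and 1 lower. After median-ratio scaling 6 rose and 1 fell in class I, and 5 rose and 2 fell in class II. The 8 enzymes of the multi-synthetase complex had a median of 0.36 (6 higher, 0 lower). The 13 others had a median of 0.56 (11 higher, 1 lower). On the deposited scale 54.4% of all tested genes were called higher and 19.5% lower. After median-ratio scaling 4 rose and 2 fell in the complex, and 8 rose and 1 fell outside it, beside 33.3% and 34.4% of all genes. The members of each class spread widely, and these differences were not tested.

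Of the 3 scaffold proteins of that complex 1 rose, 1 fell and 1 did not pass. After median-ratio scaling 0 rose and 2 fell. The shares of all tested genes were 54.4% and 19.5%, and 33.3% and 34.4% after that scaling. Aimp1, which also gives rise to a secreted cytokine, was at 79.43 and 74.00 TPM in WT against 97.58 and 96.45 TPM in Tet2 KO, and rose on the deposited scale (log2 fold change 0.34, SE 0.0516, limma adjusted p = 2.12e-05). After median-ratio scaling its log2 fold change was 0.09 (limma adjusted p = 0.139, range over alternatives 3.08e-06 to 0.551). Aimp2 fell, from 32.69 and 34.99 TPM to 27.11 and 30.85 TPM (log2 fold change -0.22, SE 0.0689, limma adjusted p = 0.0097). That call was lost without WT replicate 2 (limma adjusted p = 0.106), without Tet2 KO replicate 1 (limma adjusted p = 0.096) and with no filter on low values (limma adjusted p = 0.053, range over alternatives 6.62e-09 to 0.106). Exons of Aimp2 overlap the heme-regulated eIF2 kinase gene Eif2ak1 by 487 bases on the opposite strand, and 29.3% of its 31-base words occur on the opposite strand of other genes, most of them Eif2ak1. Eef1e1, known as AIMP3, was at 48.43 and 49.65 TPM in WT against 51.29 and 40.35 TPM in Tet2 KO. Its Tet2 KO libraries lay on either side of WT, and it did not pass on the deposited scale (limma adjusted p = 0.423, range over alternatives 2.61e-05 to 0.593).

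The median change of the mitochondrial enzymes was near that of all genes. Of 16, 10 rose, 0 fell and 6 did not pass on the deposited scale, a share of 62.5% higher against 54.4% of all tested genes. Their median log2 fold change was 0.21, against 0.23 over all genes. After median-ratio scaling 2 rose (Wars2 and Rars2), 4 fell (Yars2, Aars2, Tars2 and Sars2) and 10 did not pass, with a median of -0.02. These shares, 12.5% higher and 25% lower, were below the 33.3% and 34.4% of all tested genes. The count of 10 higher became 5 without WT replicate 1 and 6 without WT replicate 2. The medians of cytosolic and mitochondrial enzymes differed by 0.29, and by 0.25 to 0.31 when each library was left out in turn. That difference was 0.28 after median-ratio scaling.

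Wars2, the mitochondrial tryptophan enzyme (chromosome 3, 99141068 to 99239186), rose most in this class. It was at 3.07 and 3.15 TPM in WT against 5.01 and 5.52 TPM in Tet2 KO, a 1.69-fold rise (log2 fold change 0.61, SE 0.104, limma adjusted p = 6.34e-05). Both the cytosolic and the mitochondrial tryptophan enzyme were thus first in their class. Rars2, for arginine, was at 18.08 and 19.61 TPM against 27.61 and 25.67 TPM, a 1.41-fold rise, larger than the 1.20-fold of cytosolic Rars. Calls of Wars2 and Rars2 held under all 15 alternatives.

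Nars2, Vars2, Ears2, Fars2, Pars2 and Iars2 rose by less, and were not called after median-ratio scaling. Nars2 was at 4.37 and 4.39 TPM in WT against 5.53 and 6.27 TPM in Tet2 KO. Vars2 was at 7.42 and 7.79 TPM against 9.39 and 10.48 TPM. Ears2 was at 1.47 and 1.63 TPM against 2.04 and 2.32 TPM, the lowest level of the 40 genes. In each of these the groups did not overlap, with folds of 1.35, 1.31 and 1.41. The Ears2 call was lost without WT replicate 1, WT replicate 2 or Tet2 KO replicate 2 (limma adjusted p = 0.153, 0.0567 and 0.143, with a range of 0.00767 to 0.588 over alternatives). Fars2, for phenylalanine, was at 12.85 and 14.52 TPM in WT against 16.94 and 16.90 TPM in Tet2 KO. Pars2, for proline, was at 3.60 and 3.77 TPM against 4.63 and 4.80 TPM. The Pars2 call was lost without the same 3 libraries (limma adjusted p = 0.109, 0.0533 and 0.0621, with a range of 0.00499 to 0.884 over alternatives), and the Fars2 call without WT replicate 1 (limma adjusted p = 0.0788, range over alternatives 0.00154 to 0.91). Iars2, for isoleucine, was at 53.96 and 55.46 TPM against 62.06 and 64.97 TPM. Iars2 lies on chromosome 1 as Eprs does, and its 1.16-fold rise was well below the 1.93-fold rise of Eprs. Its exons overlap Rab3gap2 by 2034 bases on the opposite strand, and Rab3gap2 rose 1.17-fold.

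Yars2, Aars2, Tars2, Sars2, Cars2 and Lars2 did not pass on the deposited scale. Yars2 was at 18.59 and 18.20 TPM in WT against 17.34 and 16.53 TPM in Tet2 KO, and Aars2 at 6.48 and 7.21 TPM against 6.46 and 6.40 TPM. Tars2 was at 20.52 and 19.30 TPM against 18.56 and 20.11 TPM, and Sars2 at 9.12 and 8.85 TPM against 8.34 and 9.29 TPM. These 4 had limma adjusted p-values of 0.146 to 0.795, and the groups of Tars2 and Sars2 overlapped. Of their cytosolic partners Yars, Aars and Sars rose at least 1.62-fold, and Tars rose 1.17-fold on the deposited scale and was not called after median-ratio scaling. Cars2 was at 12.21 and 13.27 TPM against 15.20 and 13.89 TPM, with groups that did not overlap (limma adjusted p = 0.0522). Mars2 was called higher on the deposited scale, at 7.19 and 7.20 TPM against 8.35 and 8.60 TPM, but its call (limma adjusted p = 0.0386) was lost without each of the 4 libraries in turn (limma adjusted p = 0.0502 to 0.138, range over alternatives 0.0149 to 0.924).

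Lars2 gave no stable value. It was at 421.82 and 380.49 TPM in WT against 271.90 and 499.77 TPM in Tet2 KO, so that the Tet2 KO libraries lay below and above both WT libraries. Over all 4 libraries its log2 fold change came to -0.12 (SE 0.43, limma adjusted p = 0.829). It was -0.56 without Tet2 KO replicate 2 (limma adjusted p = 8.71e-05) and 0.32 without Tet2 KO replicate 1 (limma adjusted p = 0.00259, range over alternatives 8.71e-05 to 0.966). The row Rn45s, the ribosomal RNA precursor, was at 2855.22 and 2626.10 TPM in WT against 2657.92 and 4124.83 TPM in Tet2 KO. Lars2 and Rn45s were both highest in Tet2 KO replicate 2, and the part of ribosomal RNA in the Lars2 value was not tested. The other 15 mitochondrial enzymes summed to 191.2 and 197.1 TPM in WT and to 221.6 and 226.6 TPM in Tet2 KO, with no such gap between replicates. The count of 10 higher and the difference between the class medians, 0.29, were the same without Lars2.

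**Figure D3:**
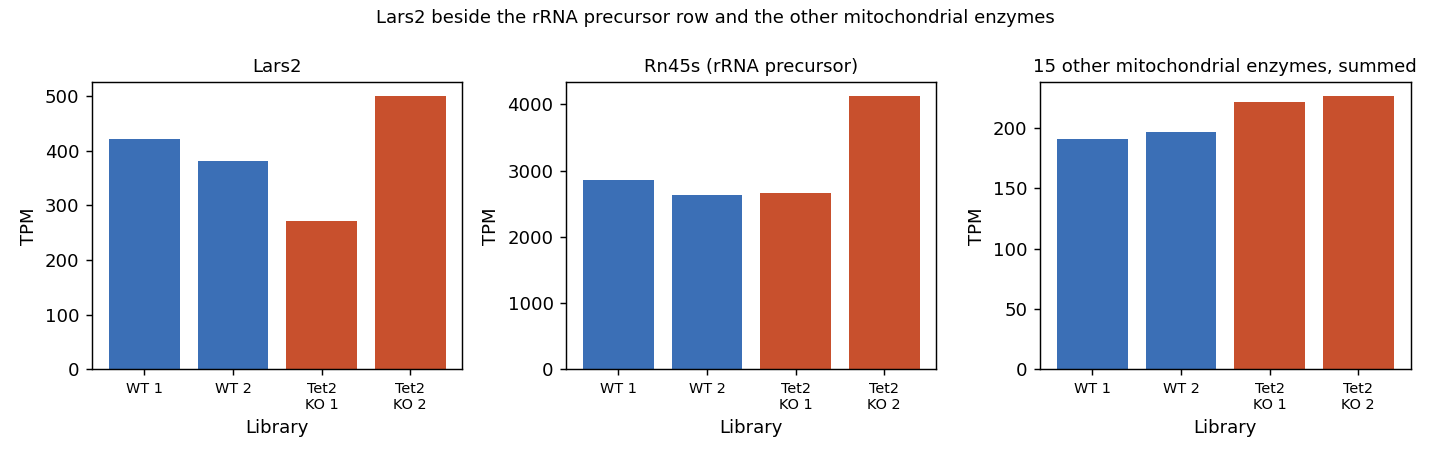
TPM in each library (bars from zero, WT blue and Tet2 KO red) of Lars2, of the ribosomal RNA precursor row Rn45s and of the other 15 mitochondrial enzymes summed. Lars2 and Rn45s are both highest in Tet2 KO replicate 2, at 499.77 and 4124.83 TPM, while the summed enzymes differ little between replicates.

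For 16 amino acids a cytosolic and a mitochondrial enzyme could be set against each other within each library, as 17 ratios that no scaling of the library changes. In 13 of the 17 both Tet2 KO libraries had a higher ratio than both WT libraries, and in 4 a lower ratio. Eprs and Fars2 each enter 2 ratios, and no share of other gene pairs was computed, so the count describes these pairs and is not particular to them. The serine ratio, Sars over Sars2, was 9.59 and 9.80 in WT and 21.3 and 20.1 in Tet2 KO. The tyrosine ratio, Yars over Yars2, was 2.61 and 2.65 against 4.54 and 5.03. The alanine ratio, Aars over Aars2, was 17.8 and 15.9 against 28.2 and 29.7. In these 3 the cytosolic transcript rose while the mitochondrial one did not pass. The isoleucine ratio was 1.28 and 1.33 against 2.05 and 2.03, the closest to equal levels in WT. The leucine ratio was also higher, but it divides by the unstable Lars2.

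The tryptophan ratio moved less, from 15.1 and 14.8 to 19.5 and 18.7, as Wars2 rose too. For methionine the groups nearly touched, at 8.66 and 8.47 against 8.76 and 9.29. The ratios that were lower in Tet2 KO were those of histidine, arginine and the phenylalanine subunits. The histidine ratio, Hars over Hars2, was 6.41 and 6.13 in WT and 3.86 and 3.84 in Tet2 KO. The arginine ratio was 6.13 and 5.58 against 4.76 and 5.14. For Farsa over Fars2 the nearest libraries were at 6.53 in WT and 6.51 in Tet2 KO, and for Farsb over Fars2 at 4.63 and 4.62. These 2 ratios and that of arginine separate by less than the replicates of a group differ. Histidine is the lower ratio with a wider gap. Among the higher ratios, those of cysteine, threonine, asparagine, leucine and methionine also separate by less than replicates differ. The cysteine ratio was 3.22 and 2.94 in WT against 3.63 and 4.06 in Tet2 KO. The threonine ratio was 4.23 and 4.78 against 5.65 and 5.19, and that of asparagine 43.2 and 43.1 against 54.1 and 46.9. With 2 libraries a group these ratios were not tested.

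**Figure D4:**
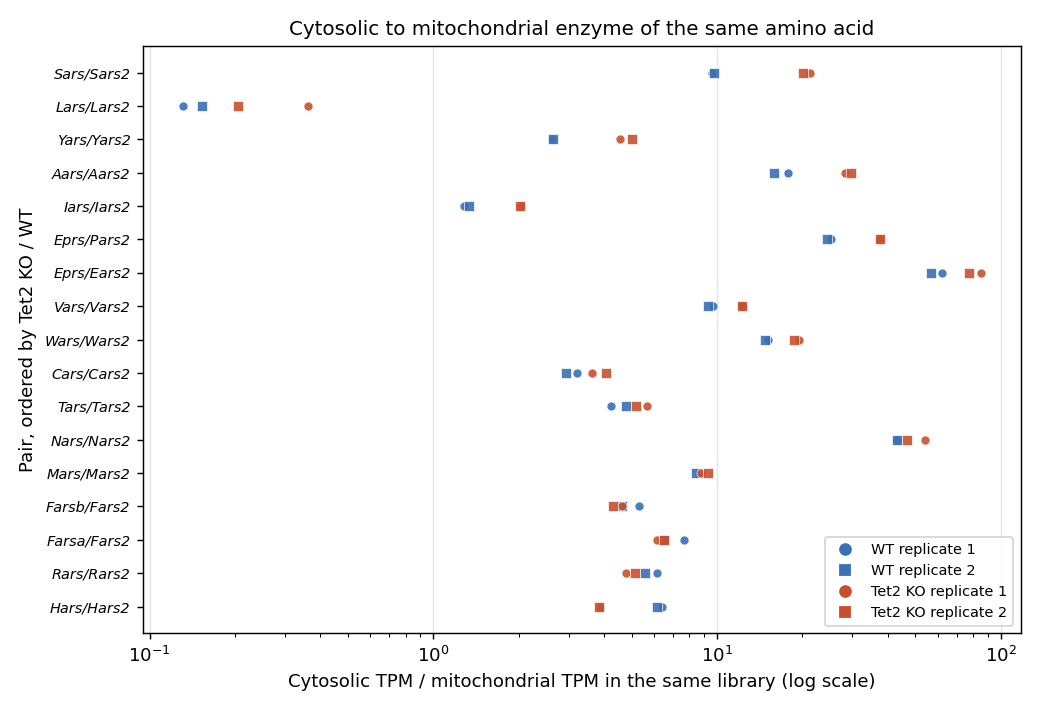
Ratio of the cytosolic to the mitochondrial transcript (log axis) for each of 17 pairs in the 2 WT (blue) and 2 Tet2 KO libraries (red), ordered by the change in Tet2 KO. Sars/Sars2 moved from near 10 to near 20, and Hars/Hars2 is at the bottom, with both red points left of the blue.

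Among genes of the response to uncharged tRNA, Atf4 and the genes of the eIF2 phosphatase were higher in Tet2 KO. Of 17 genes of amino acid sensing and eIF2 phosphorylation 11 rose and 2 fell, where 54.4% and 19.5% of all genes did. The median log2 fold change of these 17 was 0.19, against 0.23 over all genes. After median-ratio scaling 5 rose and 6 fell, beside 33.3% and 34.4% of all genes. Ppp1r15a, the stress-induced eIF2 phosphatase subunit, was at 63.65 and 65.24 TPM in WT against 189.96 and 197.52 TPM in Tet2 KO. Atf4 was at 366.44 and 367.03 TPM against 633.79 and 645.87 TPM, and Ppp1r15b at 71.18 and 72.48 TPM against 100.23 and 101.88 TPM. Eif2ak4, which encodes GCN2, rose from 15.76 and 16.78 TPM to 21.47 and 23.52 TPM. It was not called with spike-in scaling (limma adjusted p = 0.0653). The 2 genes that fell were Eif2b1 and Eif2b5, with log2 fold changes of -0.20 and -0.19.

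Of 34 tested transcripts of the ATF4 pathway other than synthetases, 32 rose and 1 fell, where 54.4% and 19.5% of all genes did. Their median log2 fold change was 1.09, against 0.23 over all genes. After median-ratio scaling 31 rose and 1 fell, beside 33.3% and 34.4% of all genes. This list was assembled with the rise of the stress response in these libraries known, so its count is no independent evidence of direction. Trib3, a pseudokinase gene, Slc7a3, a transporter of cationic amino acids, and Aldh1l2, a mitochondrial folate enzyme, had the largest log2 fold changes, 3.53, 2.68 and 2.68. Xpot, which exports tRNA from the nucleus, was at 47.46 and 50.02 TPM in WT against 103.99 and 106.21 TPM in Tet2 KO. Asns, the asparagine synthetase, makes the amino acid that Nars loads and rose from 62.66 and 64.46 TPM to 176.53 and 177.24 TPM. Atf3 was the member that fell, from 88.60 and 90.97 TPM to 60.50 and 64.73 TPM. No cytosolic synthetase reached the list's median of 1.09 apart from Wars. Of the 29 genes of this list with a promoter, 10 (34.5%) held TGATGNAA.

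Other genes of mitochondrial tRNA charging had a median change below that of all genes. Of 15 genes for maturation and charging of mitochondrial tRNA, 6 rose and 1 fell (median log2 fold change 0.09), where 54.4% and 19.5% of all genes did. After median-ratio scaling 1 rose and 6 fell, beside 33.3% and 34.4% of all genes. Scaled to the spike-ins 1 rose and 9 fell, beside 29.6% and 37.7% of all genes. Gatc, a subunit of the amidotransferase that makes glutamine-tRNA in mitochondria, rose from 21.68 and 20.99 TPM to 30.14 and 28.90 TPM. Its partner subunit Gatb fell from 8.33 and 7.08 TPM to 6.59 and 6.02 TPM, and Qrsl1, the third subunit, was at 11.71 and 10.66 TPM against 11.85 and 10.74 TPM. Trnt1, which adds the CCA end that every synthetase needs, rose from 25.29 and 26.73 TPM to 34.51 and 33.46 TPM. Trmt10c, a subunit of mitochondrial RNase P, rose from 22.74 and 25.81 TPM to 33.61 and 29.52 TPM. Neither Trnt1 nor Trmt10c was called after median-ratio scaling (limma adjusted p = 0.0507 and 0.202) or with spike-in scaling.

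**Figure D5:**
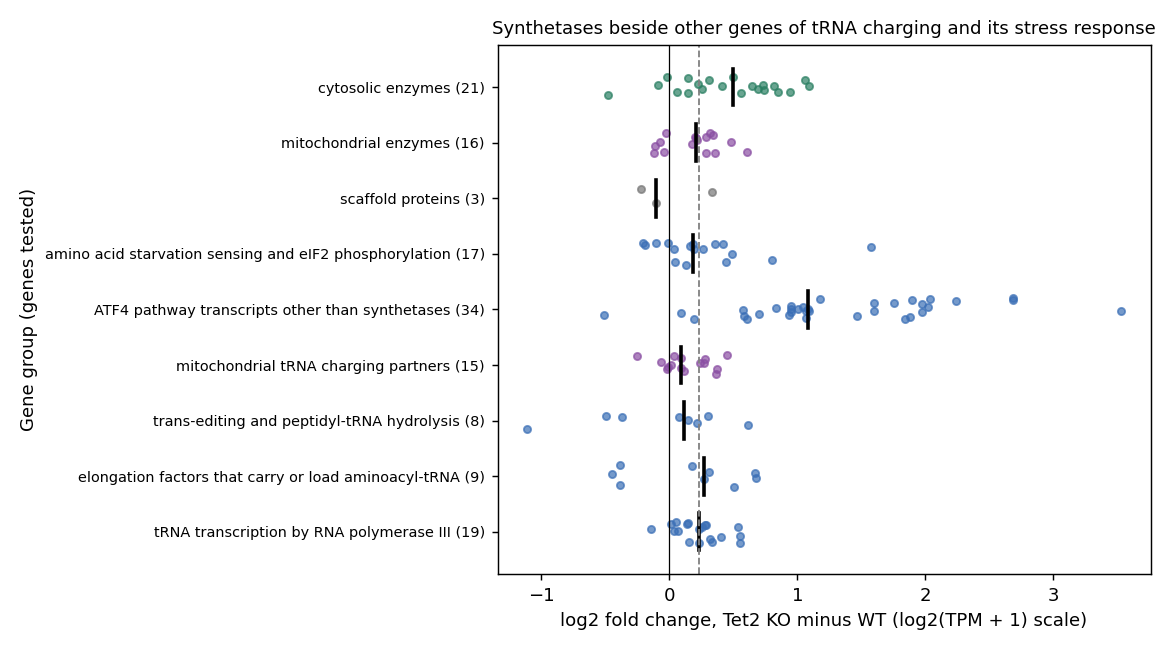
Log2 fold change in Tet2 KO against WT of each tested gene (points) in the synthetase classes and in 6 other gene groups, with the group median as a black bar and the median of all tested genes as a dashed line. The ATF4 pathway lies furthest right, the median of the cytosolic enzymes lies to the right of the dashed line at 0.50, and mitochondrial enzymes lie around it.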

How the data were processed

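The authors deposited 1 table of TPM, with 1 column for each of the 4 libraries. Libraries came from a stranded mRNA kit, per the labels' protocols. The submitters' processing notes name STAR, RSEM and mm10. For versions, annotation release and filters, the sources used here give nothing. TPM are shares of a fixed total, spike-ins included, so abundant RNAs move all other values. The 92 spike-in rows were left out of the tests.

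Tet2 KO was set against WT with limma 3.58.1 (R 4.3.3, statmod 1.5.0) on log2(TPM + 1), using intensity trend and robust estimation, where 2 or more libraries reached 1 TPM. Adjusted p-values are two-sided Benjamini-Hochberg values over 11452 genes, with a threshold of 0.05, and log2 fold changes understate those of low genes. Folds without log2 are ratios of mean TPM, n = 2 per group. The members, gene lists and tests were chosen with earlier results of these data known. The text gives library values for the 8 called members of largest log2 fold change in each class, those with a negative one or that did not pass, and up to 3 genes of each list. Hars2, Mars, Mars2, Xpot, Asns, Atf3, Eif2ak4, Eif2b1, Eif2b5, Qrsl1 and Gatb were added after their values were seen. So were Tufm, Eef1d, Gfm1, Tsfm, Gfm2, Aarsd1, Rn45s and the overlapping genes. The fit was tested on simulated data of this comparison (11452 genes): it recovered 65 of 100 changes of 0.5 and 89 of 100 of 1 (log2), with 7 false calls. These changes had random directions, and the simulated data held independent noise and no general shift. In the libraries 73.9% of genes were called, so the simulation cannot give their rate of false calls. Positions, exon overlaps and shared 31-base words came from GENCODE M21, on the same build, and promoters from RefSeq. Alternatives covered the replicate block, pseudocounts, filters, scalings, variance settings and each library left out. Python 3.11.15 and matplotlib 3.10.9 drew the figures.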

Additional observations from a re-analysis of the deposited data

How the results depend on the processing

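Across the 15 alternatives run, pseudocounts of 0.1 and 5 changed no member's call or direction. Cytosolic enzymes were 11 higher when scaled to the spike-ins, and 3, 3 and 6 were lower with median-ratio scaling, quantile normalization and spike-in scaling. For mitochondrial enzymes the same 3 scalings each gave 2 higher and 4 lower. With each library left out, cytosolic enzymes were 15 to 16 higher and 1 lower each time, mitochondrial enzymes 5 to 10 higher and 0 to 1 lower, and the class medians differed by 0.251 to 0.307. With 1 library left in a group, its spread is taken to be that of the other group. With the replicate block 17 cytosolic enzymes were higher and 1 lower, and 9 mitochondrial enzymes higher and 0 lower, and the call of Mars2 was lost. The numbers are not stated to pair libraries, and deviations of same-numbered libraries correlated at -0.0733. Leaving out Lars2, added after the data were seen, gave 10, 0 and 0.288.

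Signs turned as follows, in log2 fold changes. With median-ratio scaling they were Cars2 -0.0513, Farsa -0.0952, Farsb -0.0938, Hars2 -0.0304, Iars2 -0.0306, Mars2 -0.00895, Qars -0.18 and Tars -0.0213. With quantile normalization they were Cars2 -0.0994, Farsb -0.0162, Hars2 -0.0754, Mars2 -0.059 and Qars -0.0854. Scaled to the spike-ins they were Cars2 -0.0981, Farsa -0.14, Farsb -0.14, Hars2 -0.0769, Iars2 -0.0797, Mars2 -0.0532, Qars -0.23, Rars -0.0378 and Tars -0.0708. With libraries left out, Lars2 ranged from -0.56 to 0.32, and the highest values of others of negative sign were Sars2 0.0435 and Tars2 0.0143 without Tet2 KO replicate 1 (lowest -0.0962 and -0.0957 without Tet2 KO replicate 2), Eef1e1 0.0636 without Tet2 KO replicate 2 (lowest -0.28 without Tet2 KO replicate 1) and Tarsl2 0.10 without WT replicate 2. Tars2 was also 0.00144 without WT replicate 1. The cause was not tested. Sequencing depth is unknown, so counting error at the level of Ears2 or Wars2 could not be given.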

Other observations

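Genes of RNA polymerase III, which transcribes tRNA, had a median log2 fold change of 0.23, near that of all genes. Of 19 genes 12 rose and 0 fell, where 54.4% of all genes were called higher and 19.5% lower. After median-ratio scaling 4 rose and 3 fell, beside 33.3% and 34.4% of all genes. Bdp1, a subunit of the initiation factor TFIIIB, had log2 fold change 0.55, Maf1, the repressor of the polymerase, 0.55, and Polr3gl, a polymerase subunit, 0.53. Of 9 elongation factors that carry or follow charged tRNA, 6 rose and 3 fell, or 3 and 3 after median-ratio scaling. The shares of all genes were 54.4% and 19.5%, and 33.3% and 34.4% after that scaling. Eef1a1, which delivers charged tRNA to the cytosolic ribosome, rose from 9252.15 and 9244.03 TPM to 14885.94 and 14680.03 TPM, and Eef2 and Eef1b2 rose by log2 fold changes of 0.67 and 0.50. Eef1d, another cytosolic factor, fell by 0.39 on the log2 scale. Of the mitochondrial factors Tufm fell from 66.86 and 68.55 TPM to 48.26 and 50.59 TPM and Gfm1 fell by 0.39 on the log2 scale, while Tsfm and Gfm2 rose on the deposited scale and were not called after median-ratio scaling.

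Of 8 genes listed for correction of mischarged tRNA or release of stalled peptidyl-tRNA, 3 rose and 3 fell. After median-ratio scaling 1 rose and 3 fell. The shares of all genes were 54.4% and 19.5%, and 33.3% and 34.4% after that scaling. Aarsd1, which encodes a protein related to the editing domain of alanyl-tRNA synthetase, fell from a mean of 34.3 TPM to 26.3 TPM while Aars rose. Dtd1, a deacylase gene for tRNA charged with D-amino acids, was at 8.75 and 11.56 TPM in WT against 6.03 and 7.80 TPM in Tet2 KO (limma adjusted p = 0.0221). Angel2, a gene of an RNA-end phosphatase, rose from 21.08 and 22.71 TPM to 33.86 and 34.12 TPM. Angel2 was the 1 gene of this list called higher after median-ratio scaling, and a phosphatase does neither of the listed steps.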
